A study of Mus musculus with 80 samples.

Results

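The PYHIN family members followed here were Ifi203, Ifi204, Ifi207, Mnda, Mndal and Aim2 in stem cells (HSC) and progenitor cells (HPC) of the mouse blood system. They were found by mouse symbol, as 6 of the 41388 genes in the table of the age series and 6 of the 40481 genes in the table of the genotype series. The rows were labelled by Ensembl identifiers: ENSMUSG00000039997 for Ifi203, ENSMUSG00000073489 for Ifi204, ENSMUSG00000073490 for Ifi207, ENSMUSG00000026536 for Mnda, ENSMUSG00000090272 for Mndal and ENSMUSG00000037860 for Aim2. The gene listed as Mnda is named Ifi211 in current mouse annotation. The label Mnda is kept here.

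The study measured RNA by sequencing in 80 libraries from mice of the B6 strain, and asked how these cells change from fetal to adult life. In the genotype series, the groups at birth (P0) were Ifnar -/- HSC (4 libraries) and wild type HSC (5), then Ifnar -/- HPC (4) and wild type HPC (4). At postnatal day 14 (P14) the HPC groups were Ifnar -/-, Flt3 ITD/+ (5), Ifnar -/-, Flt3 +/+ (4), Ifnar +/-, Flt3 ITD/+ (4) and Ifnar +/-, Flt3 +/+ (4). The P14 controls for the Ifnar deletion were thus Ifnar +/-, not wild type. The age series held HSC at the embryonic ages E14.5 (3 libraries), E16.5 (4), E18.5 (3), P0 (4), P7 (4), P14 (4) and 8 weeks of age (adult, 4), and HPC at E16.5 (3), P0 (4), P7 (4), P14 (5) and 8 weeks (4), with no genotype given. The organ and the surface markers of the sort are unstated in the labels, as is whether the libraries of a group came from separate mice, so p-values measure only the spread between these libraries.

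PYHIN proteins join a pyrin domain, which binds other pyrin domains, to one or more HIN domains, which bind DNA. In mice their genes form a tandem cluster, and many of them are induced by interferon through the type I interferon receptor, the receptor that the label Ifnar refers to. Aim2 binds double-stranded DNA in the cytosol and recruits the adaptor Pycard, which activates caspase-1 in a complex called the inflammasome. Ifi204 has been linked to DNA sensing through STING in mouse cells, and human MNDA was named as a nuclear antigen of myeloid differentiation. Flt3 is a receptor tyrosine kinase of progenitors, and its internal tandem duplication (ITD) is an activating mutation known from acute myeloid leukemia.

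All members lay on chromosome 1 of GRCm38 (GENCODE M21 annotation), within chr1:173350879-174031810, a span of 680.932 kb that held the 13 PYHIN genes listed for this report. Aim2 (chr1:173350879-173466040, plus strand) lay at one end. Ifi207 (chr1:173723427-173741747), Ifi204 (chr1:173747293-173766943), Mndal (chr1:173849126-173942491), Mnda (chr1:173896345-173913046) and Ifi203 (chr1:173920407-173942672) lay on the minus strand. The annotated span of Mndal overlapped Ifi203 and contained Mnda. The 50-base words of each gene's transcripts were compared with those of the other listed genes and of 1 further gene, Ifi203-ps. Mnda shared 72.8% of its words (44.7% with Ifi205), Ifi204 19.2%, Mndal 17.7%, Ifi203 12.2% (8.85% with Ifi203-ps) and Ifi207 5.4%, and Aim2 shared none. How reads that match more than one gene were counted, and whether strand was used, is not stated in the labels, so the Mnda values in particular are uncertain, and reads of Ifi203 and Mndal may not be fully separated.

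**Figure D1:**
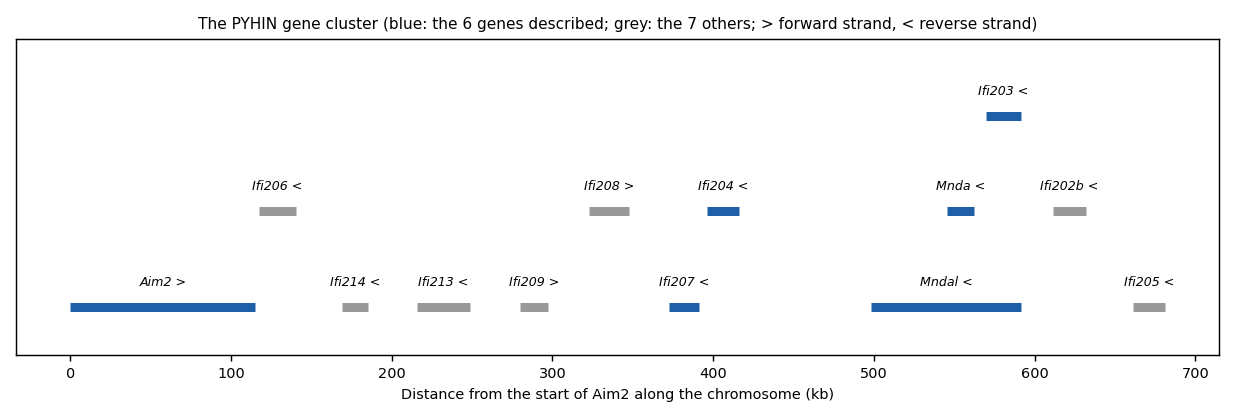
Map of the PYHIN cluster, drawn to scale as distance in kb along the chromosome, with the 6 members in blue and the other 7 PYHIN genes in grey. Mndal spans Mnda and overlaps Ifi203, and Aim2 lies at the far end.

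The bases just upstream of the annotated starts are shown because the members were compared with and without the interferon receptor, and interferon-stimulated response elements (ISRE) are a common feature of genes it controls. The lines give the 60 bases before a RefSeq start (GRCm38.p6), 5′ to 3′ on the strand of the gene, with the ISRE-like core GAAANNGAA in capitals where it was found.
Ifi203: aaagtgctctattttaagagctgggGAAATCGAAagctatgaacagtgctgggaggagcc
Mndal: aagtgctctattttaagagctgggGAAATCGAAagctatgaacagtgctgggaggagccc
Ifi207: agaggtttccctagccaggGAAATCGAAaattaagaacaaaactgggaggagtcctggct
Mnda: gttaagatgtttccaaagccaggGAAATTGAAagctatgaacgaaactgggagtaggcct
Aim2: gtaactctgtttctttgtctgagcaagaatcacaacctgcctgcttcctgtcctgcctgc
These windows were chr1:173942493-173942552 for Ifi203, chr1:173880188-173880247 for Mndal, chr1:173741810-173741869 for Ifi207, chr1:173913047-173913106 for Mnda and chr1:173420544-173420603 for Aim2. Promoter windows of 250 bases before to 50 after the start were found for 5 of the 6 members, and Ifi204 was not matched. Ifi203 and Mndal had 2 windows each and the others 1, 7 in all. Searched on both strands, 5 of these 7 windows held GAAANNGAA, against 8.56% of 32851 windows in RefSeq, and 0 of the 7 held the GAS-like motif TTCNNNGAA, against 8.30% of the windows. By gene, 4 of 5 had the first motif in at least 1 window, against 9.76% of 27025 genes. In the windows printed, the core lay 35 bases before the start in Ifi203, 36 in Mndal, 41 in Ifi207 and 37 in Mnda. The other window of Ifi203 held no core, and the other window of Mndal held 1, on the opposite strand and 53 bases before the start. The windows of Ifi203 and Mndal were near copies over part of their length, with 195 of 299 aligned bases identical and a longest identical run of 139. Those of Ifi207 and Mnda were identical at 157 of 296 aligned bases with a longest run of 23. Among the other 7 genes of the cluster, 5 held the core. A match of letters is a description and not a binding site.

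Read totals ranged from 6950206 to 24033730 reads in HSC of the age series, 7910900 to 25382447 in HPC of the age series, 37039400 to 46302596 in P0 HSC, 11683086 to 14719608 in P0 HPC and 58400350 to 92099541 in P14 HPC of the genotype series. Values below are RPKM, the reads of a library scaled by exon length and library total, and fold changes are log2 ± SE. Calls were made at an adjusted p below 0.05, by limma on log2(RPKM + 0.5) for HSC of the age series and for the difference between its cell types, and by the quasi-likelihood test of edgeR on counts for all other comparisons, with Benjamini-Hochberg adjustment over all genes tested. HSC fold changes of the age series are on that log2(RPKM + 0.5) scale, which understates the change of low genes. In bulk samples, fewer cells that express a gene and less RNA per cell cannot be told apart. Whether groups overlapped is described gene by gene, and the share of all genes without overlap is not given here.

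In HSC of the age series the family was carried by Mndal, Ifi203 and Aim2, with Ifi204 low and Ifi207 and Mnda close to undetected. Together the first 3 made up 95.4% to 98.1% of the summed RPKM of the PYHIN cluster in group means from E14.5 to adulthood. In HPC the same sum was 89.1% at E16.5, 80.2% at P0, 89.5% at P7, 88.4% at P14 and 90.6% in adults.

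Mndal, a growth-inhibiting nuclear protein related to Mnda, had 12.4, 11.2 and 12.9 RPKM in HSC at E14.5 and 15.2, 15.9, 13.3 and 14.7 RPKM at E16.5. At E18.5 it had 36.9, 30.5 and 28.3 RPKM, and at P0 25.4, 19.2, 19.0 and 19.9 RPKM. Every E18.5 library lay above every library at the 3 neighbouring ages. Later levels were 21.96 ± 1.62 RPKM at P7, 24.6 ± 3.68 at P14 and 23.1 ± 2.78 in adults (SD, n = 4 each), and these 3 ages overlapped each other. Ifi203 had 13.0, 13.5 and 12.1 RPKM at E14.5 and 15.3, 12.9, 11.9 and 13.2 RPKM at E16.5. Its E18.5 libraries had 29.95, 26.1 and 19.7 RPKM and its P0 libraries 23.4, 23.0, 25.4 and 17.6 RPKM. All E18.5 and P0 libraries of Ifi203 lay above all E16.5 libraries, while E18.5 and P0 overlapped. Ifi203 was at 16.4 ± 1.62 RPKM at P7, 18.04 ± 1.22 at P14 and 15.4 ± 1.24 in adults (SD, n = 4 each). In order of their means the Ifi203 ages ran E14.5, E16.5, adult, P7, P14, P0 and E18.5, and no pair of neighbours in age other than E16.5 and E18.5 was called.

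Between E18.5 and E16.5 the members Mndal and Ifi203 rose, by 1.04 ± 0.14 (limma adjusted p = 2.0e-05) and 0.85 ± 0.15 (limma adjusted p = 0.000526) on the log2 scale. That was 2 of the 4 members tested, where 2.48% of all genes tested were called higher. Ifi207 and Mnda did not pass the filter, which asked for 1 RPKM in at least the number of libraries in the smallest group. Ifi204 differed by 0.23 ± 0.36 and Aim2 by -0.34 ± 0.22, neither called. The median of the 4 members was 0.54, against -0.002 over all genes tested. Genes that act downstream of the interferon receptor rose at the same step. These were 4 of 8 tested genes of the receptor signalling list, among them Stat2 (0.96), Irf9 (1.36) and Usp18 (2.44). Irf7 (2.48) and Zbp1 (2.05), of 9 DNA-sensing genes tested, also rose, and Tmem173, which encodes STING, fell by 0.51, a call lost in 6 of 7 fits without 1 library. Over these libraries the summed level of 4 progenitor markers was 205 to 220 RPKM at E18.5 against 328 to 436 RPKM at E16.5, with 3 of 4 called lower, and that of 10 macrophage markers was 77.1 to 84.7 RPKM against 43.9 to 67.9 RPKM, with 1 of 8 tested called higher. The part of these markers in the result was not tested.

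**Figure D2:**
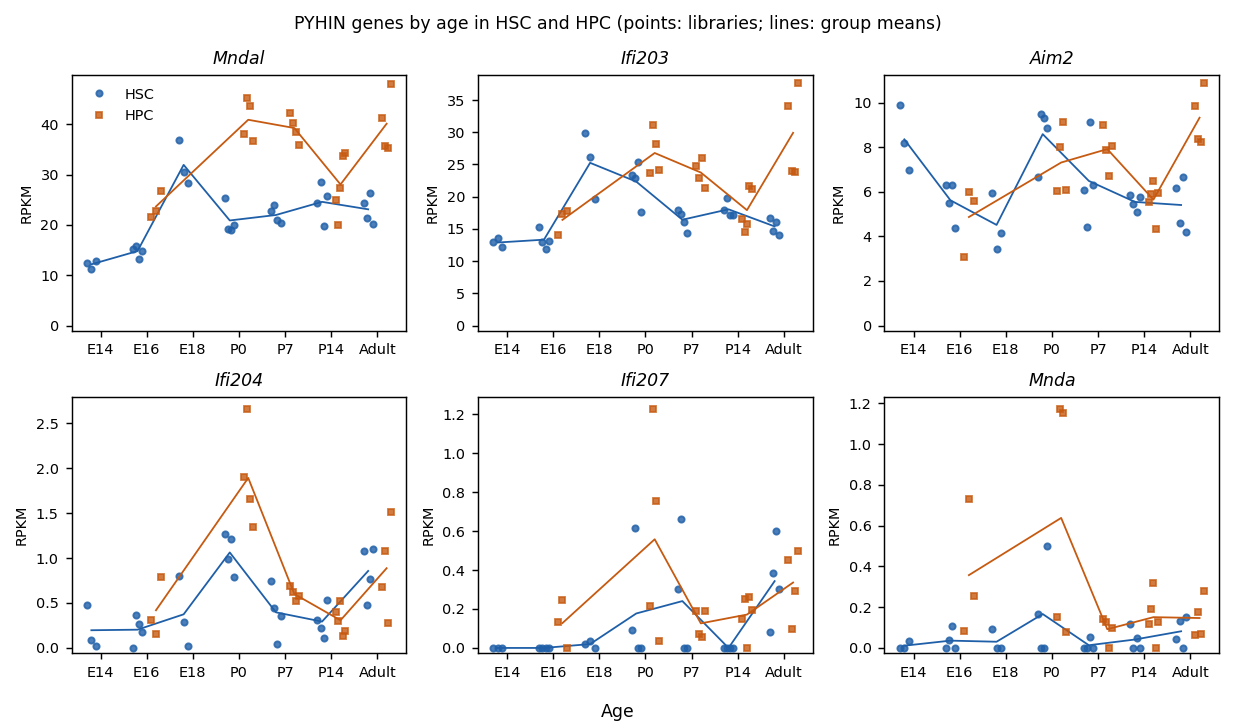
RPKM of the 6 members by age in HSC and HPC of the age series, 1 point per library, with lines through the group means. Mndal and Ifi203 are highest at E18.5 in HSC, while Ifi207 and Mnda stay near 0 there.

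Aim2 followed a different course in HSC. It had 9.91, 8.19 and 6.96 RPKM at E14.5, 6.29, 5.50, 6.33 and 4.36 RPKM at E16.5, 5.95, 3.43 and 4.17 RPKM at E18.5 and 6.66, 9.51, 9.33 and 8.86 RPKM at P0. All P0 libraries lay above all E18.5 libraries. Aim2 was at 6.49 ± 1.95 RPKM at P7, 5.55 ± 0.338 at P14 and 5.41 ± 1.20 in adults (SD, n = 4 each), with overlap throughout. From E18.5 to P0 Aim2 rose by 0.89 ± 0.22 (limma adjusted p = 0.0147) while Mndal fell by 0.58 ± 0.14 (limma adjusted p = 0.0132). Of 4 members tested, 1 was thus called higher, where 3.01% of all genes were, and 1 lower, where 1.82% were. Ifi203 differed by -0.15 ± 0.15 and Ifi204 by 0.93 ± 0.36, neither called. The Mndal call ended without E18.5 replicate 1 (-0.47, limma adjusted p = 0.0901), and over all alternatives its adjusted p ran from 0.00494 to 0.124. The Aim2 call ended without E18.5 replicate 2 (0.72, limma adjusted p = 0.107) or replicate 3 (0.86, limma adjusted p = 0.0542). Both calls ended when only these ages were fitted. Progenitor markers summed to 265 to 410 RPKM at P0 against 205 to 220 RPKM at E18.5, with 2 of 4 called higher, Cd48 (3.31) and Flt3 (0.99). T and NK cell markers summed to 27.2 to 47.0 RPKM at P0 against 10.7 to 14.3 RPKM at E18.5, with 1 of 2 tested called higher, Nkg7 (2.11), and Cd3e and Cd3g at 0 at both ages. Macrophage markers summed to 117 to 170.2 RPKM at P0 against 77.1 to 84.7 RPKM at E18.5 (1 of 8 tested higher), and erythroid markers to 551 to 868 RPKM at P0 against 922 to 1236 RPKM at E18.5 (1 of 5 higher, Epor at 0.82). What part these markers have in the result was not tested.

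By limma, 0 of 4 members were called between E16.5 and E14.5 in HSC, where 0.0524% of all genes were called in either direction. The count was also 0 of 4 for P7 against P0 (5.9% of all genes in either direction), for P14 against P7 (1.71%) and for adult against P14 (5.31%). At an unadjusted p under 0.05 the counts were 1 (Aim2), 2 (Ifi203 and Ifi204), 0 and 1 (Ifi204) in that order, and edgeR on reads recovered from the RPKM called 0, 1 (Ifi203), 0 and 0. Ifi203 was nearest at P7 against P0, at -0.41 ± 0.13 (limma adjusted p = 0.0681), and was called there without P0 replicate 4 (-0.51, limma adjusted p = 0.0247). Adult HSC set against E16.5 HSC had 2 of 4 members called higher, where 12.6% of all genes were. Mndal rose by 0.63 ± 0.13 (limma adjusted p = 0.000521) and Ifi204 by 0.96 ± 0.33 (limma adjusted p = 0.0336), with Ifi203 at 0.21 ± 0.13 and Aim2 at -0.05 ± 0.20. Ifi204 had 1.08, 0.481, 0.769 and 1.09 RPKM in adult HSC against 0, 0.361, 0.271 and 0.1803 RPKM at E16.5. The groups did not overlap, but these were low levels. The Ifi204 call ended without E16.5 replicate 1 or 4 or adult replicate 1, 3 or 4 (0.80 to 0.98, limma adjusted p = 0.0534 to 0.109). With a pseudocount of 0.1 its fold change was 1.81, and by edgeR on reads recovered from the RPKM it was 2.06, and neither was called (limma adjusted p = 0.0506 and edgeR adjusted p = 0.15). Of 5 sex-linked genes, 1 was called higher and 4 lower in adult HSC against E16.5 HSC, and the sex of the mice is not in the labels. Erythroid markers summed to 42.1 to 61.2 RPKM in adult HSC against 892 to 1216 RPKM at E16.5 (4 of 5 lower), progenitor markers to 146 to 200.4 RPKM against 328 to 436 RPKM (4 of 4 lower), and 5 of 8 macrophage markers tested were called higher in adults. Their part in the result was not tested.

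In other ages of HSC, Ifi204 had 1.26, 0.989, 1.21 and 0.783 RPKM at P0, the highest mean of the series (1.06 ± 0.220, SD, n = 4). Its other libraries ran from 0.0242 to 0.473 RPKM at E14.5, 0.0251 to 0.803 at E18.5, 0.0390 to 0.743 at P7 and 0.107 to 0.529 at P14. Ifi207 was at 0 in every library at E14.5, E16.5 and P14, and reached 0.661 RPKM in 1 library at P7. Mnda was at or under 0.499 RPKM in every HSC library of the age series. No fold change is given for either at these levels.

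In HPC of the age series all 6 members passed the filter. Mndal had 21.5, 22.8 and 26.7 RPKM at E16.5 and 38.0, 45.2, 43.7 and 36.6 RPKM at P0. It stayed at 39.2 ± 2.67 RPKM at P7 (SD, n = 4), had 28.0 ± 6.01 RPKM at P14 (SD, n = 5) and 40.1 ± 5.94 RPKM in adults (SD, n = 4). All P0 libraries lay above all E16.5 libraries, and the P14 libraries ran lowest after birth, from 20.02 to 34.2 RPKM. Ifi203 had 14.1, 17.3 and 17.8 RPKM at E16.5 and 23.7, 31.1, 28.2 and 24.1 RPKM at P0. Its mean was 23.7 ± 2.07 RPKM at P7 (SD, n = 4), 17.9 ± 3.26 at P14 (SD, n = 5) and 29.9 ± 7.07 in adults (SD, n = 4). Adult libraries of Ifi203, at 34.1, 24.0, 23.9 and 37.7 RPKM, all lay above those of E16.5 and P14. Ifi204 had 0.311, 0.153 and 0.792 RPKM at E16.5 and 1.90, 2.66, 1.66 and 1.35 RPKM at P0. It was at 0.600 ± 0.0693 RPKM at P7 (SD, n = 4), 0.307 ± 0.159 at P14 (SD, n = 5) and 0.887 ± 0.532 in adults (SD, n = 4), so that every P0 library lay above every P7 and P14 library. Aim2 ran from 3.06 to 5.98 RPKM at E16.5, from 6.03 to 9.13 at P0, from 6.71 to 9.02 at P7, from 4.33 to 6.51 at P14 and from 8.23 to 10.9 in adults.

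From E16.5 to P0 in HPC, 3 of 6 members rose, where 2.6% of all genes were called higher. These were Ifi203 (0.70 ± 0.16, edgeR adjusted p = 0.0152), Ifi204 (2.29 ± 0.56, edgeR adjusted p = 0.0235) and Mndal (0.79 ± 0.14, edgeR adjusted p = 0.0022). Ifi207 (2.02 ± 0.92), Mnda (0.84 ± 0.89) and Aim2 (0.58 ± 0.22) were not called. The median of the members was 0.82, against 0.006 over all genes tested. Ifi203 was not called without E16.5 replicate 1 (0.60, edgeR adjusted p = 0.107) or P0 replicate 2 (0.61, edgeR adjusted p = 0.0591). Ifi204 was not called without E16.5 replicate 1 (2.13) or 2 (1.89) or P0 replicate 2 (2.06; edgeR adjusted p = 0.0747 to 0.121 over these), and its fold change was 2.97 without E16.5 replicate 3. Of 5 other cluster genes tested, Ifi206 (1.82), Ifi209 (1.94) and Ifi213 (2.59) rose. Casp1, the inflammasome's protease, rose by 1.15 and Nlrc4, which senses bacterial proteins, by 1.51. Irf7 (2.40), Zbp1 (1.62) and Usp18 (1.76), known interferon targets, rose at this step too, with the Zbp1 and Nlrc4 calls each lost in 2 of 7 fits without 1 library, while no tested marker of progenitors, macrophages, monocytes and dendritic cells, neutrophils, B, T and NK cells or erythroid cells was called in HPC at P0 against E16.5.

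Later steps in HPC gave fewer member calls. By edgeR 0 of 6 members were called for P7 against P0, where 1.48% of all genes were called in either direction, with 3 (Ifi204, Ifi207 and Mnda) at an unadjusted p under 0.05. Ifi204 was at -1.69 ± 0.47 there (edgeR adjusted p = 0.0795) and was called by DESeq2 (adjusted p = 0.0197) and with only these ages fitted (edgeR adjusted p = 0.0018). Of the 5 other cluster genes tested, Ifi208 rose by 4.46 and Ifi209 fell by 1.296, the second called in 1 of 8 fits without 1 library. Mndal fell by 0.38 ± 0.12 from P7 to P14 (edgeR adjusted p = 0.0475), which was 1 of 6 members where 5.06% of all genes were called lower. That call ended without any 1 of P7 replicates 1 to 4 or P14 replicates 1 to 3 (-0.40 to -0.29, edgeR adjusted p = 0.0727 to 0.166), with no filter (-0.35) and with only these ages fitted (-0.39). From P14 to adulthood 2 of 6 members rose, where 14.9% of all genes did. Ifi203 rose by 0.51 ± 0.14 (edgeR adjusted p = 0.00893), not called without adult replicate 4 (0.38, edgeR adjusted p = 0.0571). Ifi204 rose by 1.29 ± 0.46 (edgeR adjusted p = 0.0402), a call that ended without adult replicate 1, 2 or 4 or P14 replicate 2, 4 or 5 (0.91 to 1.39, edgeR adjusted p = 0.0522 to 0.189) and with only these ages fitted (1.27, edgeR adjusted p = 0.103). The P14 HPC libraries of this series ranged from 6.32 to 278 RPKM in the sum of 6 neutrophil markers and from 1513 to 5360 RPKM in the sum of 4 progenitor markers. The part of these levels in the P14 results was not tested.

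Adult HPC against E16.5 HPC had 3 of 6 members higher, where 14.9% of all genes were. Aim2 had 9.84, 8.36, 8.23 and 10.9 RPKM in adult HPC against 3.06, 5.98 and 5.58 RPKM at E16.5, without overlap, and rose by 0.79 ± 0.22 (edgeR adjusted p = 0.011). Ifi203 rose by 0.72 ± 0.16 (edgeR adjusted p = 0.00198) and Mndal by 0.62 ± 0.14 (edgeR adjusted p = 0.00214). Ifi204 (1.05 ± 0.55, edgeR adjusted p = 0.163), Ifi207 (1.09 ± 0.91) and Mnda (-1.43 ± 0.95) were not called. Leaving out 1 library gave 0.63 to 1.72 for Ifi204, called at the upper end without E16.5 replicate 3 (edgeR adjusted p = 0.0447), and -1.95 to -0.17 for Mnda. Of the 5 other cluster genes tested, Ifi213 rose by 2.36 and Ifi205 fell by 4.27, the second called in 3 of 7 fits without 1 library (-5.78 to -2.16). Without E16.5 replicate 1 the Aim2 difference was 0.53 and not called (edgeR adjusted p = 0.081). Of the inflammasome genes around Aim2, 4 of 10 tested rose, namely Casp1 (1.97), Nlrp1b (2.18), Il18 (1.14) and Gsdmd (0.63), and Naip2 fell by 1.02. Of 8 receptor signalling genes, 6 rose and 0 fell. Erythroid markers summed to 22.8 to 41.5 RPKM in adult HPC against 368 to 621 RPKM at E16.5, and 6 of 10 macrophage markers were called higher in adults. The part of these markers in the result was not tested. The change with age was not shown to differ between HSC and HPC for any member. Of 4 members tested, 0 were called in the difference of the adult against E16.5 change, where 4.21% of all genes were called in either direction, and Aim2 was nearest at -0.88 ± 0.28 (limma adjusted p = 0.0646). At an unadjusted p under 0.05 there were 2, Ifi203 and Aim2. The Aim2 difference was called without HSC E16.5 replicate 4 (-0.99, limma adjusted p = 0.0449), without HSC adult replicate 3 (-0.96, limma adjusted p = 0.0494) or without HPC E16.5 replicate 2 (-1.06, limma adjusted p = 0.0366).

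At P0 in wild type mice of the genotype series, 4 of 6 members were called lower in HSC than in HPC, where 25.2% of all genes tested were. These were Ifi204, Ifi207, Mnda and Mndal. Wild type HSC had Ifi204 at 1.46, 0.467, 1.08, 0.756 and 2.01 RPKM, against 4.02, 2.86, 3.73 and 2.35 RPKM in wild type HPC, with no overlap and a difference of -1.45 ± 0.44 (edgeR adjusted p = 0.00837). Ifi207 had 0.157, 0.00776, 0.320, 0 and 0.112 RPKM in HSC against 0.328, 1.03, 1.67 and 1.76 RPKM in HPC (-3.31 ± 0.92, edgeR adjusted p = 0.00494). Without HSC replicate 3 this was -4.03. Mnda had 0.344, 0.1799, 0.165, 0.176 and 0.262 RPKM in HSC against 0.921, 0.848, 2.05 and 1.19 RPKM in HPC (-2.43 ± 0.51, edgeR adjusted p = 0.000436). Mndal differed by -0.42 ± 0.15 (edgeR adjusted p = 0.0224), not called without HPC replicate 3 (-0.38, edgeR adjusted p = 0.0667), with 31.6, 31.3, 31.4, 30.8 and 38.1 RPKM in HSC against 45.8, 45.2, 48.0 and 39.9 RPKM in HPC. Ifi203 (-0.35 ± 0.17, edgeR adjusted p = 0.0919) and Aim2 (0.22 ± 0.23) were not called, but Ifi203 was without HSC replicate 5 (-0.48, edgeR adjusted p = 0.0221) and with only these 2 groups fitted (-0.36, edgeR adjusted p = 0.0359). All 5 other cluster genes tested were lower in HSC too, from -5.97 for Ifi209 to -1.68 for Ifi213. The identifiers in the sample titles differ in form between the cell types, with no meaning given, and the read totals did not overlap, so cell type and any difference in handling cannot be told apart in this comparison.

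The Ifnar genotype was first looked for in the receptor genes. Ifnar1 was at 11.2 ± 0.93 RPKM in Ifnar -/- HSC (SD, n = 4) and 10.7 ± 1.88 in wild type HSC (SD, n = 5). In HPC it was at 14.3 ± 0.712 RPKM in Ifnar -/- and 10.3 ± 2.12 in wild type (SD, n = 4 each). At P14 Ifnar1 was at 8.48 ± 0.781 RPKM in Ifnar -/-, Flt3 ITD/+ (SD, n = 5), 9.71 ± 0.552 in Ifnar -/-, Flt3 +/+, 8.79 ± 1.19 in Ifnar +/-, Flt3 ITD/+ and 5.52 ± 2.55 in Ifnar +/-, Flt3 +/+ (SD, n = 4 each). With all libraries, neither Ifnar1 nor Ifnar2 was called in any genotype comparison, with edgeR adjusted p from 0.0549 upward. Both belong to the receptor signalling list of 9 genes. Without Ifnar +/-, Flt3 +/+ replicate 2, genes of this list called higher went from 3 to 7 for the Flt3 ITD on Ifnar +/-. They went from 0 to 5 for Ifnar on Flt3 +/+. The values of Ifnar1 and Ifnar2 in those fits are not given here. Reads were counted over whole genes, the deleted part is not given, and these counts therefore do not check the label.

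In P0 HSC without the receptor, 4 of 6 members fell, where 0.937% of all genes tested were called lower. Mndal had 10.2, 10.8, 14.6 and 13.1 RPKM in Ifnar -/- HSC, against 31.6, 31.3, 31.4, 30.8 and 38.1 RPKM in wild type HSC. Ifi203 had 11.8, 11.4, 14.9 and 12.7 RPKM in Ifnar -/- HSC, against 22.6, 21.2, 23.6, 23.7 and 29.8 RPKM in wild type HSC. For both genes every Ifnar -/- library lay below every wild type library. The fall was 1.43 on the log2 scale for Mndal (-1.43 ± 0.13, edgeR adjusted p = 2.67e-05) and 0.93 for Ifi203 (-0.93 ± 0.14, edgeR adjusted p = 0.0016). Ifi204 had 0.0899, 0.115, 0.319 and 0.0873 RPKM in Ifnar -/- HSC, against 1.46, 0.467, 1.08, 0.756 and 2.01 RPKM in wild type HSC, without overlap (-2.93 ± 0.52, edgeR adjusted p = 0.00843). Without Ifnar -/- replicate 2 it was not called (-2.85, edgeR adjusted p = 0.0549), and without replicate 3 it was -3.54. Mnda had 0.0307, 0.0131, 0.0436 and 0.0132 RPKM in Ifnar -/- HSC, from 7 reads in all, against 0.344, 0.1799, 0.165, 0.176 and 0.262 RPKM in wild type HSC (-3.11 ± 0.63, edgeR adjusted p = 0.0251). That call ended without wild type replicate 1 or 5 or any 1 of the 4 Ifnar -/- replicates (-3.47 to -2.89, edgeR adjusted p = 0.0547 to 0.132), and with no filter on low counts (-3.12, edgeR adjusted p = 0.083).

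Aim2 and Ifi207 were not called in P0 HSC. Aim2 had 3.62, 3.73, 6.52 and 5.73 RPKM in Ifnar -/- HSC, against 7.57, 9.89, 8.91, 3.86 and 5.61 RPKM in wild type HSC, with overlap (-0.54 ± 0.24, edgeR adjusted p = 0.529). Ifi207 had at most 0.0873 RPKM in Ifnar -/- HSC and at most 0.320 RPKM in wild type HSC (-2.06 ± 1.16, edgeR adjusted p = 0.616). The median over the 6 members was -1.74, against -0.002 over all genes tested. Monocyte and dendritic markers summed to 1.64 to 3.35 RPKM in Ifnar -/- HSC and 2.54 to 2.84 RPKM in wild type HSC, with 0 of 3 tested called and Siglech at 0 in both groups. Macrophage markers summed to 84.2 to 107 RPKM in Ifnar -/- HSC and 48.2 to 102 RPKM in wild type HSC, although 3 of 9 tested were called lower. What part these markers have in the result was not tested.

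In P0 HPC without the receptor, 5 of 6 members fell, where 5.58% of all genes tested were called lower. Ifi204 had 0, 0.104, 0.0674 and 0.239 RPKM in Ifnar -/- HPC, from 12 reads in all, against 4.02, 2.86, 3.73 and 2.35 RPKM in wild type HPC (-4.97 ± 0.54, edgeR adjusted p = 3.99e-05). Mnda had 0, 0.0947, 0 and 0.0466 RPKM in Ifnar -/- HPC, from 3 reads in all, against 0.921, 0.848, 2.05 and 1.19 RPKM in wild type HPC (-4.99 ± 0.72, edgeR adjusted p = 0.000531). Ifi207 had 0, 0.157, 0.0218 and 0 RPKM in Ifnar -/- HPC, against 0.328, 1.03, 1.67 and 1.76 RPKM in wild type HPC (-4.70 ± 0.83, edgeR adjusted p = 0.00296). In these 3 genes no library of one genotype overlapped the other. Leaving out 1 Ifnar -/- library moved the size but not the call, to -5.75 for Ifi204 without replicate 4, and to -6.91 for Ifi207 and -5.92 for Mnda without replicate 2.

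Mndal and Ifi203 fell less steeply in P0 HPC. Mndal had 12.2, 13.7, 17.5 and 23.3 RPKM in Ifnar -/- HPC, against 45.8, 45.2, 48.0 and 39.9 RPKM in wild type HPC (-1.49 ± 0.17, edgeR adjusted p = 8.2e-05). Ifi203 had 9.74, 11.3, 15.8 and 21.3 RPKM in Ifnar -/- HPC, against 33.5, 31.0, 33.1 and 28.2 RPKM in wild type HPC (-1.18 ± 0.20, edgeR adjusted p = 0.0024). Neither gene overlapped between genotypes, and replicate 4 was the highest Ifnar -/- library in both. Aim2 had 4.67, 3.42, 3.10 and 5.62 RPKM in Ifnar -/- HPC, against 4.87, 5.84, 6.63 and 7.37 RPKM in wild type HPC, with overlap (-0.62 ± 0.21, edgeR adjusted p = 0.0779). Aim2 was called by DESeq2 (adjusted p = 0.0374) and without Ifnar -/- replicate 4 (-0.79, edgeR adjusted p = 0.0366). The median over the 6 members was -3.10, against 0.012 over all genes tested. Monocyte and dendritic markers moved with this result, summing to 5.44 to 7.95 RPKM in Ifnar -/- HPC and 17.9 to 26.3 RPKM in wild type HPC (5 of 7 called lower). Macrophage markers summed to 17.9 to 45.6 RPKM in Ifnar -/- HPC and 52.6 to 67.7 RPKM in wild type HPC (5 of 8 lower), and progenitor markers to 598 to 849 RPKM and 1294 to 1438 RPKM in the same order (3 of 4 lower). Both B cell markers tested were lower, at sums of 0.738 to 2.68 RPKM in Ifnar -/- HPC and 7.8 to 16.1 RPKM in wild type HPC, with Ms4a1 at 0 in both groups and Pax5 at 0 in Ifnar -/- HPC. Erythroid markers were higher in 3 of 4, at 406 to 735 RPKM in Ifnar -/- HPC and 262 to 463 RPKM in wild type HPC. Their part in the result was not tested.

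**Figure D3:**
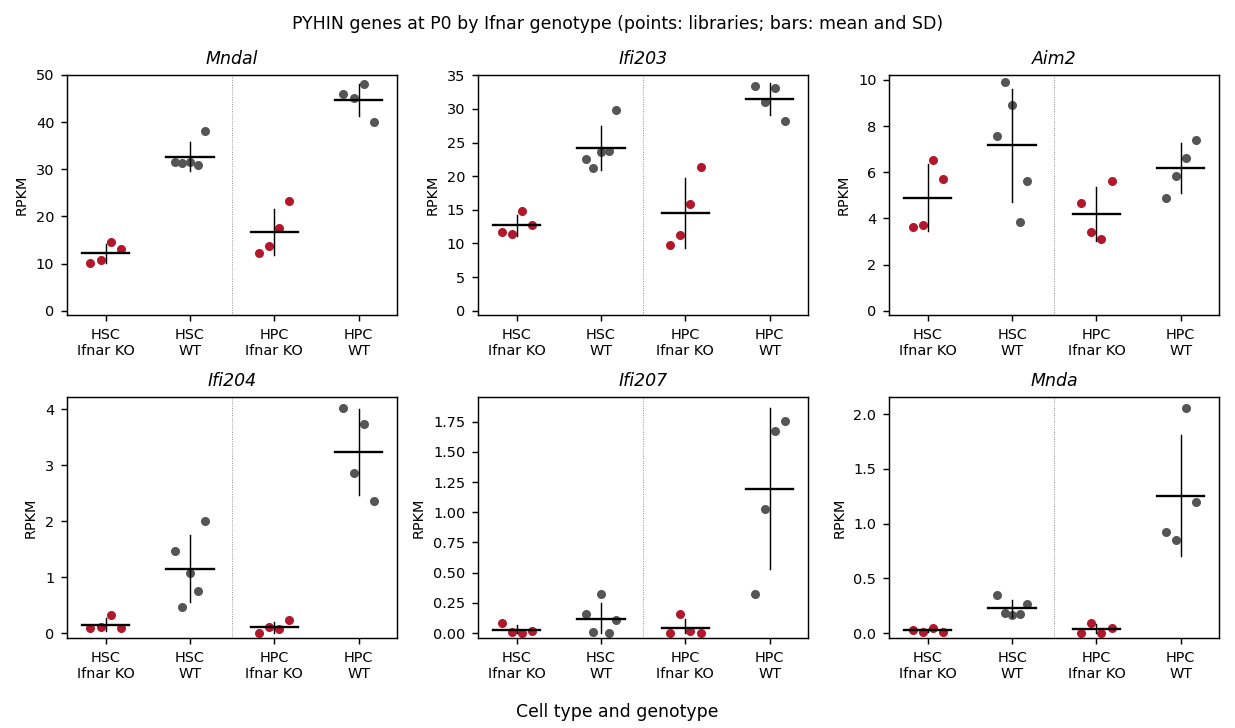
RPKM of the 6 members at P0 in Ifnar -/- and wild type HSC and HPC, 1 point per library, with the group mean and SD (bars stop at 0). Mndal, Ifi203, Ifi204 and Mnda do not overlap between genotypes in either cell type, while Aim2 does in both.

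The effect of the deletion was not shown to differ between the cell types for any member. Of 6 members, 0 were called in the difference of HSC and HPC effects, where 1.75% of all genes were called in either direction. DESeq2 also called 0, and 1 (Ifi204) had an unadjusted p under 0.05 by edgeR. The differences ran from 0.08 ± 0.22 for Mndal to 2.72 ± 1.67 for Ifi207, with edgeR adjusted p of 0.216 or more. Without HSC Ifnar -/- replicate 1 the Ifi207 difference was 1.16, and without HPC Ifnar -/- replicate 2 it was 5.11. For Mndal the interval of the difference was -0.36 to 0.51 on the log2 scale and for Ifi203 it was -0.23 to 0.75, while for Ifi204 it was 0.50 to 3.66. These intervals are not adjusted for the number of genes.

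At P14 the 4 libraries of Ifnar +/-, Flt3 +/+ HPC were not alike. Replicate 2 had Flt3 at 141 RPKM, against 13.4 to 20.7 RPKM in the other 3. Flt3 was at 16.1 to 57.7 RPKM in Ifnar -/-, Flt3 ITD/+, 78.4 to 133 RPKM in Ifnar -/-, Flt3 +/+ and 55.8 to 70.4 RPKM in Ifnar +/-, Flt3 ITD/+ HPC, and at 22.4 to 190 RPKM in P14 HPC of the age series. By this gene replicate 2 lay above every other P14 library of the genotype series, and within the range of P14 HPC of the age series. Replicates 1 and 3 lay below all these groups, and replicate 4 lay only within the range of Ifnar -/-, Flt3 ITD/+. Replicate 2 had HSC markers at 656 RPKM, against 273 to 394 RPKM in the other 3. Its erythroid markers were at 171 RPKM, against 238 to 326 RPKM, and its T and NK cell markers at 175 RPKM, against 217 to 628 RPKM. Without replicate 2 the genes called in the Flt3 ITD comparison within Ifnar +/- numbered 5783 in place of 895, those in the Ifnar comparison within Flt3 +/+ 6233 in place of 833, and those in the difference of effects 5582 in place of 2. Without replicate 1, 3 or 4 the counts were 281 to 642 for the Flt3 ITD comparison, 54 to 205 for the Ifnar comparison and 0 to 1 for the difference of effects. Replicate 1 had monocyte and dendritic markers at 42.3 RPKM and Mpo, which encodes a granule enzyme of myeloid cells, at 1752 RPKM, against 1.78 to 4.30 RPKM and 118 to 174 RPKM in the other 3. Which of these libraries represents the genotype was not tested. Results that use this group, for genes other than markers, Ifnar1 and Ifnar2, are given with all 4 libraries and without replicate 2. Replicate 2 was the library that moved the counts most. The other libraries are named where a member's call depends on them. Marker results are given with all 4 libraries only, and some changed without replicate 2. Progenitor markers called higher went from 0 to 2 of 4 in both the Flt3 ITD comparison within Ifnar +/- and the Ifnar comparison within Flt3 +/+.

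With the Flt3 ITD on the Ifnar +/- background, 4 of 6 members rose in P14 HPC, where 2.77% of all genes tested were called higher. Mnda had 1.21, 1.71, 6.68 and 3.31 RPKM in Ifnar +/-, Flt3 ITD/+ HPC, against 0.419, 0.136, 0.313 and 0.388 RPKM in Ifnar +/-, Flt3 +/+ HPC (3.29 ± 0.55, edgeR adjusted p = 0.00219). Ifi207 had 0.748, 0.816, 2.26 and 1.56 RPKM in Flt3 ITD/+ HPC, against 0.155, 0.233, 0.0696 and 0.1996 RPKM in Flt3 +/+ HPC (3.01 ± 0.71, edgeR adjusted p = 0.0243). Neither gene overlapped between the genotypes, and replicate 3 was the highest Flt3 ITD/+ library in both. Ifi204 had 3.09, 5.31, 20.9 and 12.2 RPKM in Flt3 ITD/+ HPC, against 1.22, 1.04, 0.904 and 2.28 RPKM in Flt3 +/+ HPC, also without overlap (2.89 ± 0.72, edgeR adjusted p = 0.0331). Ifi203 had 25.3, 28.8, 32.5 and 30.3 RPKM in Flt3 ITD/+ HPC, against 12.3, 23.3, 12.01 and 18.8 RPKM in Flt3 +/+ HPC (0.76 ± 0.20, edgeR adjusted p = 0.0371). Mndal (0.24 ± 0.20) and Aim2 (0.02 ± 0.17) were not called, and the interval of the Aim2 difference was -0.31 to 0.34.

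Without Ifnar +/-, Flt3 +/+ replicate 2 the same members were called, with Mnda at 3.03, Ifi207 at 3.18, Ifi204 at 2.76 and Ifi203 at 0.92. That fit called 5783 genes in either direction, against 895 with all libraries. Leaving out other libraries ended 3 of the 4 calls. Ifi203 was not called without Flt3 +/+ replicate 1, 3 or 4 or Flt3 ITD/+ replicate 2, 3 or 4 (0.64 to 0.80, edgeR adjusted p = 0.0687 to 0.123). Ifi204 was not called without Flt3 +/+ replicate 1, 3 or 4 or Flt3 ITD/+ replicate 3 or 4 (2.26 to 3.23, edgeR adjusted p = 0.0571 to 0.132), and the lowest value was that without Flt3 ITD/+ replicate 3. Ifi207 was not called without Flt3 +/+ replicate 3 or 4 or Flt3 ITD/+ replicate 3 (2.61 to 3.10, edgeR adjusted p = 0.0586 to 0.0894). Mnda stayed called in each of these fits, at 2.61 without Flt3 ITD/+ replicate 3. With no filter, or with only these 2 groups fitted, Ifi203 and Ifi204 were not called (edgeR adjusted p = 0.0501 to 0.128). Erythroid markers summed to 75.2 to 101 RPKM in Flt3 ITD/+ HPC and 171 to 326 RPKM in Flt3 +/+ HPC (1 of 5 lower), and monocyte and dendritic markers to 14.48 to 27.1 RPKM and 1.78 to 42.3 RPKM in the same order (2 of 6 higher). The part of these markers in the result was not tested.

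On the Ifnar -/- background 0 of 6 members were called for the Flt3 ITD by edgeR, where 0.956% of all genes were called in either direction. DESeq2 also called 0, and 1 (Aim2) had an unadjusted p under 0.05 by edgeR. Mnda had 0.0710, 0.0713, 0.0349, 0.0477 and 0.0388 RPKM in Ifnar -/-, Flt3 ITD/+ HPC, against 0.0812, 0.0670, 0.0412 and 0.00824 RPKM in Ifnar -/-, Flt3 +/+ HPC (0.17 ± 0.62, edgeR adjusted p = 0.928). Ifi204 had 0.566, 0.276, 0.320, 0.615 and 2.03 RPKM in Flt3 ITD/+ HPC, against 0.887, 0.589, 0.259 and 0.157 RPKM in Flt3 +/+ HPC, with overlap (0.82 ± 0.67, edgeR adjusted p = 0.627). Without Flt3 ITD/+ replicate 5 this was 0.011, and it reached 1.22 without Flt3 +/+ replicate 1. Aim2 was nearest to a call, with 4.39, 4.07, 3.64, 3.22 and 3.55 RPKM in Flt3 ITD/+ HPC against 8.03, 4.66, 4.59 and 5.37 RPKM in Flt3 +/+ HPC (-0.50 ± 0.16, edgeR adjusted p = 0.205). Its groups did not overlap.

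With Ifnar -/- in place of Ifnar +/-, 5 of 6 members fell in Flt3 ITD/+ HPC, where 1.93% of all genes tested were called lower. Mnda was at 0.0528 ± 0.0175 RPKM in Ifnar -/-, Flt3 ITD/+ HPC (SD, n = 5) and 3.23 ± 2.47 RPKM in Ifnar +/-, Flt3 ITD/+ HPC (SD, n = 4), a fall of 5.99 on the log2 scale (-5.99 ± 0.59, edgeR adjusted p = 4.61e-06). Ifi207 had 0.0126, 0.00967, 0.00414, 0.0814 and 0 RPKM in Ifnar -/- HPC, against 0.748, 0.816, 2.26 and 1.56 RPKM in Ifnar +/- HPC (-6.00 ± 0.78, edgeR adjusted p = 0.00012). Ifi204 was at 0.762 ± 0.727 RPKM in Ifnar -/- HPC (SD, n = 5) and 10.4 ± 8.01 RPKM in Ifnar +/- HPC (SD, n = 4), with no overlap (-3.82 ± 0.69, edgeR adjusted p = 0.00384). Mndal had 36.4, 31.0, 29.7, 21.7 and 26.04 RPKM in Ifnar -/- HPC, against 43.6, 56.2, 64.3 and 65.2 RPKM in Ifnar +/- HPC (-1.04 ± 0.18, edgeR adjusted p = 0.00277). Ifi203 had 18.9, 16.1, 17.4, 11.2 and 13.1 RPKM in Ifnar -/- HPC, against 25.3, 28.8, 32.5 and 30.3 RPKM in Ifnar +/- HPC (-0.98 ± 0.19, edgeR adjusted p = 0.00481). For these 5 genes every Ifnar -/- library lay below every Ifnar +/- library. Aim2 was at 3.77 ± 0.458 RPKM in Ifnar -/- HPC (SD, n = 5) and 4.92 ± 0.607 RPKM in Ifnar +/- HPC (SD, n = 4), with overlap, and was not called (-0.42 ± 0.16, edgeR adjusted p = 0.152).

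No call of the Flt3 ITD/+ comparison was lost under any alternative, but sizes moved. Without Ifnar -/- replicate 5 the Ifi204 difference was -4.64 and without Ifnar +/- replicate 3 it was -3.19. Without Ifnar -/- replicate 4 the Ifi207 difference was -7.64, and without Ifnar +/- replicate 3 the Mnda difference was -5.31. The median over the 6 members was -2.43, against 0.019 over all genes tested. Monocyte and dendritic markers summed to 2.30 to 4.96 RPKM in Ifnar -/-, Flt3 ITD/+ HPC and 14.48 to 27.1 RPKM in Ifnar +/-, Flt3 ITD/+ HPC, with 3 of 6 called lower and Siglech at 0 in every Ifnar -/- library. What part these markers have in the result was not tested.

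On the Flt3 +/+ background 1 of 6 members fell with the loss of Ifnar, where 3.56% of all genes tested were called lower. This was Mnda, at 0.0494 ± 0.0321 RPKM in Ifnar -/- HPC and 0.314 ± 0.127 RPKM in Ifnar +/- HPC (SD, n = 4 each; -2.87 ± 0.60, edgeR adjusted p = 0.0265). The Mnda call ended without Ifnar +/- replicate 1 or 3 or any 1 of the 4 Ifnar -/- replicates (-3.11 to -2.55, edgeR adjusted p = 0.0641 to 0.084). Mndal had 55.5, 32.4, 34.4 and 28.5 RPKM in Ifnar -/- HPC, against 36.2, 46.3, 47.6 and 53.4 RPKM in Ifnar +/- HPC, with overlap through Ifnar -/- replicate 1 (-0.50 ± 0.20, edgeR adjusted p = 0.1). Ifi204 (-1.76 ± 0.70), Ifi207 (-1.88 ± 0.72), Ifi203 (0.15 ± 0.20) and Aim2 (0.09 ± 0.17) were not called. Without Ifnar +/- replicate 2, Mndal was called as well (-0.54, edgeR adjusted p = 0.0465) and Mnda was at -3.13. DESeq2 on all libraries also called Ifi207 (-1.92, adjusted p = 0.0322) and Mndal (-0.55, adjusted p = 0.0484) there. These 2 fits called 6233 and 3045 genes in either direction, against 833 by edgeR on all libraries. The Mnda call also ended when only these 2 groups were fitted (-2.88, edgeR adjusted p = 0.168). Among markers, Mpo (-2.96), Cd48 (-0.98), the B cell gene Cd79a (-2.93), Nkg7 (-1.61) and Ly6a (-1.08) were called lower in Ifnar -/-, and the stem cell genes Mecom (1.402) and Hlf (0.85) higher. B cell markers summed to 0.618 to 1.26 RPKM in Ifnar -/- HPC and 2.45 to 8.72 RPKM in Ifnar +/- HPC, with Pax5 at 0 in Ifnar -/-, and T and NK cell markers to 104 to 159 RPKM and 174.8 to 628 RPKM in the same order, with Cd3e at 0 in Ifnar +/-. Progenitor markers summed to 867 to 945 RPKM in Ifnar -/- HPC and 739 to 2357 RPKM in Ifnar +/- HPC. Their part in the result was not tested.

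**Figure D4:**
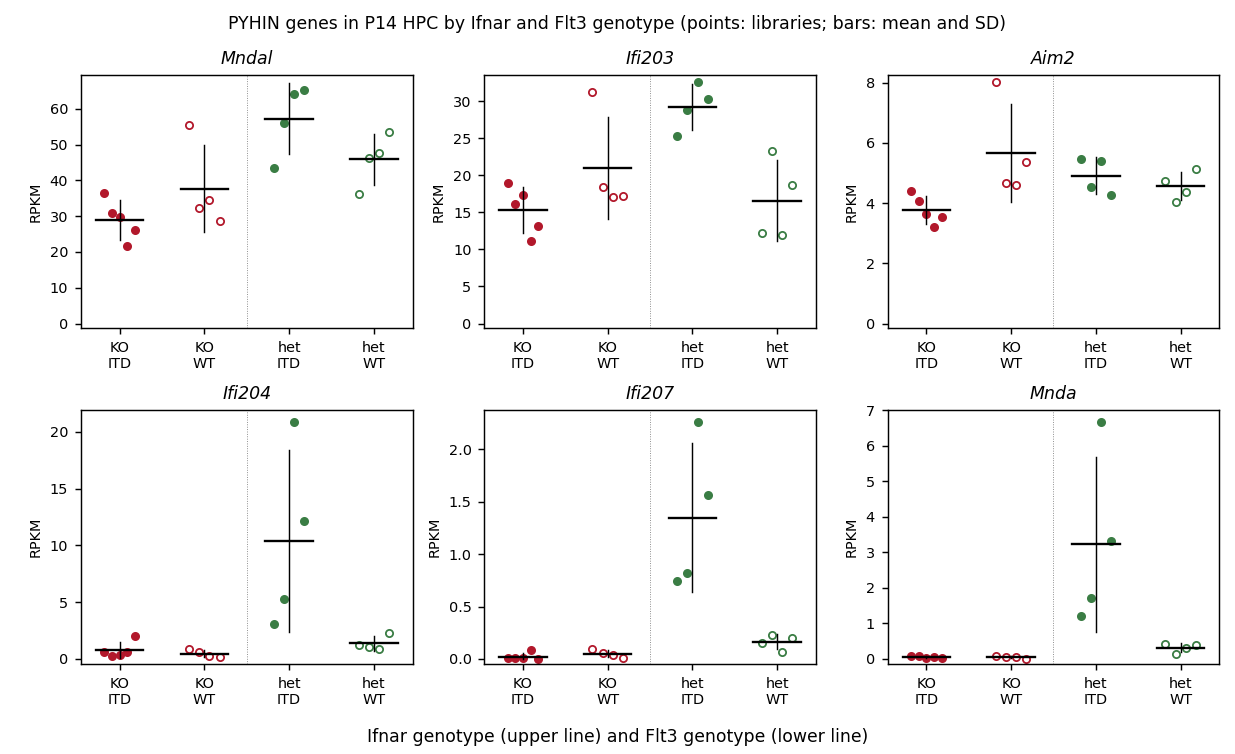
RPKM of the 6 members in the 4 groups of P14 HPC, 1 point per library, with the group mean and SD (bars stop at 0). Mnda, Ifi207 and Ifi204 are highest in Ifnar +/-, Flt3 ITD/+ HPC, and Aim2 was called in none of the comparisons.

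The Flt3 ITD effect on the Ifnar -/- background was set against that on the Ifnar +/- background in 1 model. Of 6 members 0 were called, where 0.0115% of all genes were called in either direction, and 5, all but Mndal, had an unadjusted p under 0.05 by edgeR. Ifi203 was at -1.13 ± 0.27 (edgeR adjusted p = 0.0834), Ifi207 at -4.12 ± 1.03 (edgeR adjusted p = 0.0855), Mnda at -3.12 ± 0.82 (edgeR adjusted p = 0.0855) and Ifi204 at -2.07 ± 0.94 (edgeR adjusted p = 0.157). Without Ifnar +/-, Flt3 +/+ replicate 2, 3 of 6 members were called, at -1.30 for Ifi203 (edgeR adjusted p = 0.00171), -4.30 for Ifi207 (edgeR adjusted p = 0.00741) and -2.88 for Mnda (edgeR adjusted p = 0.0107). That fit called 5582 genes in either direction, where 17464 were tested with all libraries. DESeq2 on all libraries called the same 3, with adjusted p of 0.0105, 0.0037 and 0.0127, among 2467 genes called in either direction. Ifi207 was also called without Ifnar -/-, Flt3 ITD/+ replicate 4 (-5.76, edgeR adjusted p = 0.0413). The calls for these members thus turned on which libraries were fitted and on the test used.

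**Figure D5:**
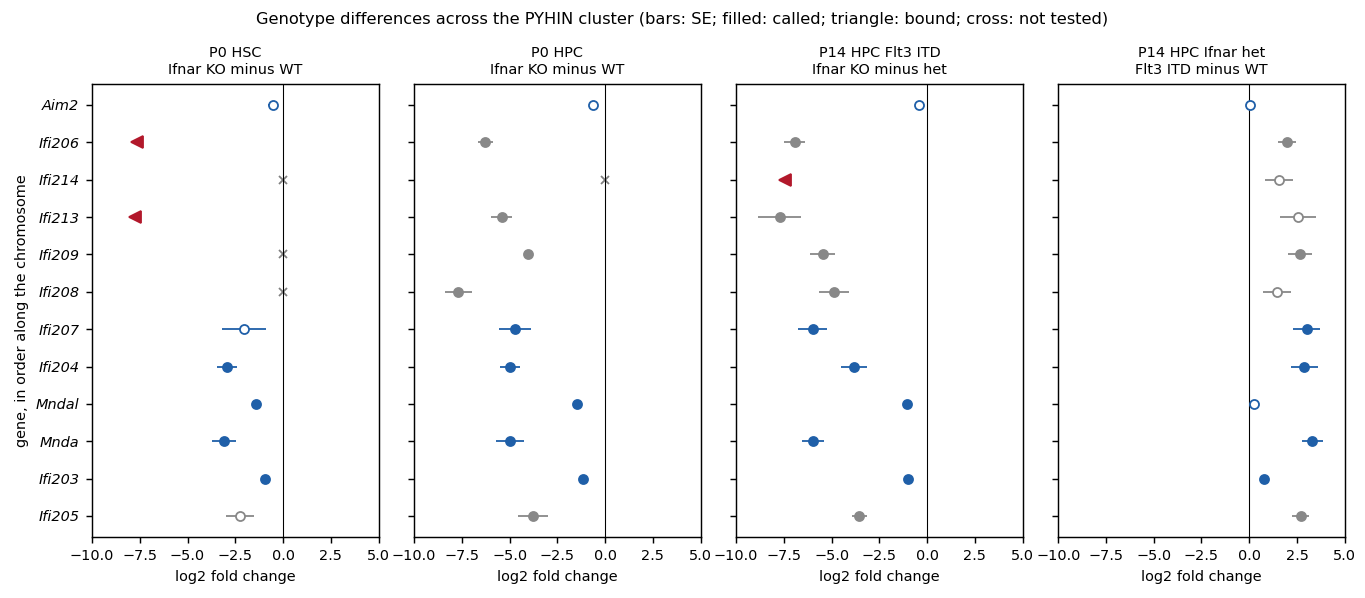
Log2 fold change of each member (blue) and of other cluster genes (grey) in 4 genotype comparisons, in chromosome order, with bars of 1 SE and called genes filled. Triangles mark bounds of genes at 0 in every Ifnar -/- library, and crosses, placed at 0, mark genes not tested. Among the 6 members, Mnda, Ifi207 and Ifi204 lie farthest below 0 where both Ifnar alleles are lost in P0 HPC and in P14 Flt3 ITD/+ HPC, and Aim2 lies nearest to 0. Several of the other cluster genes lie lower still.

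The other 7 genes of the cluster are given from a list of PYHIN genes. In P0 HSC 2 of 3 tested fell with the loss of Ifnar. Ifi213 and Ifi206 had 0 reads in all 4 Ifnar -/- libraries, against 812 and 749 reads over the wild type libraries, and were at least 217-fold and at least 200.3-fold lower (floor of 3 reads over the group). In P0 HPC 5 of 5 tested fell: Ifi206 (-6.27), Ifi209 (-4.02), Ifi208 (-7.68), Ifi213 (-5.42) and Ifi205 (-3.75). In P14 HPC with the Flt3 ITD 6 of 6 tested were lower in Ifnar -/-, among them Ifi205 (-3.55), Ifi208 (-4.87), Ifi209 (-5.47), Ifi206 (-6.94) and Ifi213 (-7.72), and Ifi214 was at 0 reads in every Ifnar -/- library, at least 175-fold lower. On the Flt3 +/+ background Ifi206 (-3.90), Ifi214 (-4.15) and Ifi213 (-4.13) fell, 3 of 6. Without Ifnar +/-, Flt3 +/+ replicate 2 all 6 were called lower there, at -3.65, -3.85 and -4.15 for the same genes, while the Ifi213 and Ifi214 calls were lost in 7 and 5 of 8 fits without 1 library. The fit without replicate 2 called 6233 genes in either direction. With the Flt3 ITD, Ifi205 (2.68), Ifi209 (2.64) and Ifi206 (1.9599) rose on the Ifnar +/- background, 3 of 6, and 0 of 6 were called on the Ifnar -/- background by edgeR. Without Ifnar +/-, Flt3 +/+ replicate 2 the same 3 were called, at 2.53, 2.74 and 2.21, among 5783 genes called in either direction. The calls of Ifi209 and Ifi206 were each lost in 4 of 8 fits without 1 library. These genes share sequence with each other, and Ifi209 shares 33.4% of its words with Ifi214. Ifi203, Mndal and Aim2 together made up 96.1% of the cluster's summed RPKM in Ifnar -/- P0 HPC and 72.9% in wild type P0 HPC. In P14 HPC this share was 96.6% in Ifnar -/-, Flt3 ITD/+, 97.3% in Ifnar -/-, Flt3 +/+, 65.9% in Ifnar +/-, Flt3 ITD/+ and 87.9% in Ifnar +/-, Flt3 +/+.

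Genes of the inflammasome around Aim2 were also tested. In P0 HPC 6 of 11 inflammasome genes tested fell in Ifnar -/-, among them the adaptor Pycard (-0.81), Casp1 (-0.86), Casp8 (-0.58) and Nlrc4 (-1.29), and the cytokine gene Il1b rose by 3.33, a call lost in 6 of 8 fits without 1 library (2.78 to 7.57). The Pycard and Nlrc4 calls were lost in 3 and 2 of these fits. In P0 HSC 0 of 10 were called, and 0 of 11 were called in the difference of the 2 cell types' effects. In Flt3 ITD/+ HPC at P14 Nlrc4 (-2.11) and Naip2 (-1.30) fell in Ifnar -/-, 2 of 10, and the Naip2 call was lost in 6 of 9 fits without 1 library. In the DNA-sensing list Irf7 and Zbp1 fell in both P0 cell types and in both P14 comparisons of Ifnar -/- with Ifnar +/-. Irf7 was at -4.66 and Zbp1 at -6.14 in P0 HSC, and they were at -5.26 and -8.73 in P0 HPC. Of the receptor signalling list, 4 of 9 tested fell in P0 HSC, among them Irf9 (-2.25), Usp18 (-5.56) and Stat2 (-1.04), and 3 of 8 in P0 HPC, among them Irf9 (-2.64) and Usp18 (-4.87). Flt3 ITD/+ HPC on the Ifnar +/- background had Irf7 (2.23), Stat2 (1.22) and Usp18 (1.58) higher than Flt3 +/+ HPC. Without Ifnar +/-, Flt3 +/+ replicate 2 these were at 2.32, 1.77 and 1.51, all called, and the Stat2 and Usp18 calls were lost in 6 and 4 of 8 fits without 1 library. In the Ifnar comparison on the Flt3 +/+ background Irf7 was at -2.37 and Zbp1 at -3.28. Without that library they were at -2.28 and -3.41, while the Zbp1 call was lost in 5 of 8 fits without 1 library. Leaving out replicate 2 moved receptor signalling calls there from 0 higher and 2 lower to 5 and 2, of 9. DNA-sensing calls moved from 0 and 2 to 2 and 4 of 9, and inflammasome calls from 0 and 0 to 2 and 2 of 10. That fit called 6233 genes in either direction. For the Flt3 ITD on Ifnar +/-, calls higher moved from 3 to 7, 1 to 3 and 0 to 2 in the same order of lists.

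Across the libraries of the age series the members did not vary alike. Over 26 HSC libraries Ifi203 and Mndal had a Pearson correlation of 0.726 between log2 levels, Aim2 and Mndal one of -0.433, and Aim2 and Ifi203 one of -0.0525. Over 20 HPC libraries the same pairs had 0.899, 0.654 and 0.691. The annotated spans of Ifi203 and Mndal overlap, and whether they share reads was not tested. The 5 genes most like the family mean were Rsad2 (0.787), Lax1 (0.787), Bbx (0.775), Zcchc18 (0.767) and Slfn10-ps (0.762) over the HSC libraries, using 4 members. Over the HPC libraries they were Xaf1 (0.906), Ifit1 (0.891), Dhx58 (0.887), Oas2 (0.850) and Oasl1 (0.844), using 6 members. These correlations are descriptions over libraries that share ages and depth.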

How the data were processed

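The authors deposited raw read counts per gene for the HPC ages and for every library of the genotype series. For HSC of the age series they deposited RPKM values. Per the submitters' processing notes, reads were handled with STAR and featureCounts (Subread) 1.4.5, and the genome build, the strand setting and the treatment of reads that match several genes are not given in the sources used here. Per the labels' protocols, RNA was purified with a Qiagen micro kit and libraries were made with a Clontech kit. With GENCODE M21 exon lengths, the RPKM values were whole multiples of 1 read (within 0.001) for 16663 of 25622 detected genes. For the other 8959, which include Ifi204, Ifi207, Mnda and Mndal, a length was searched for that made them whole. The match of those genes was thus set by the search and is no check of it. Reads recovered in these ways served as an alternative input.

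For counts, edgeR 4.0.16 was used with TMM scaling, filterByExpr and the quasi-likelihood F-test. For RPKM, limma 3.58.1 was used with robust trend on log2(TMM-scaled RPKM + 0.5), keeping genes over 1 RPKM in at least the number of libraries in the smallest group, as it was for the age difference between cell types. R was 4.3.3. The tests fitted all groups of a series and cell type together, except that P0 and P14 HPC of the genotype series were fitted apart. P0 groups of both cell types were fitted together for their difference. Other settings tried were DESeq2 1.42.0, a replicate block, no filter, a pseudocount of 0.1, only the groups compared, edgeR on recovered reads, and leaving out each library. The scripts were tested on simulated data. RPKM in the text were computed from counts with GENCODE M21 exon lengths or lengths derived from the deposited values, and library totals. Gene symbols were matched for 40254 identifiers. All 123 pairs of libraries in 1 group differed beyond counting noise. Floors of 3 reads cover counting error only, while intervals of a difference are the fold change ± 1.96 SE of the fit, which includes the spread between libraries. Markers came from lists of HSC, progenitor, macrophage, monocyte and dendritic, neutrophil, B, T and NK, erythroid and sex-linked genes. The text names all members, the receptor genes, called genes of the cluster, up to 4 called genes of each other list, and the 5 genes most like the family. Some genes of these lists are not reported here by name. The members and lists were chosen with earlier results of these data known. Left out were 1 column that matches no sample and 2 rows of non-mouse sequence (at most 0.000144% of a library).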

Additional observations from a re-analysis of the deposited data

Results flagged for a closer look

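In groups of 4 to 10 libraries, 10 of 100 groups of a member's values had a highest or lowest library farther from the rest than Dixon's criterion allows, a criterion that flags about 1 in 20 groups by chance. In P0 wild type HSC of the genotype series, replicate 5 was the high library for Mndal (38.1 RPKM, the others 30.8 to 31.6) and for Ifi203 (29.8 RPKM, the others 21.2 to 23.7). In P0 HSC of the age series, Mndal in replicate 1 was at 25.4 RPKM (the others 19.0 to 19.9) and Ifi207 in replicate 2 at 0.615 RPKM (the others 0 to 0.0923). Mnda in HSC at P7 had 1 read in replicate 3 (0.0532 RPKM) and none in the others. In Ifnar -/- libraries, Ifi204 stood at 0.319 RPKM in P0 HSC replicate 3 (the others 0.0873 to 0.115) and Ifi207 at 0.157 RPKM in P0 HPC replicate 2 (the others 0 to 0.0218). At P14, Ifi203 was at 31.3 RPKM in Ifnar -/-, Flt3 +/+ replicate 1 (the others 17.04 to 18.48). In Ifnar -/-, Flt3 ITD/+ HPC, Ifi204 was at 2.03 RPKM in replicate 5 (the others 0.276 to 0.615) and Ifi207 at 0.0814 RPKM in replicate 4 (the others 0 to 0.0126).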

How the results depend on the processing

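Among 1524 alternatives to 116 member fold changes, 1388 kept direction and side of the threshold, 73 lost a call, 23 gained one and 40 changed sign, and the cause was not tested for these changes. No value that changed sign was called under either setting. Those in fits without 1 library had these ranges. For Ifi203 E16.5 against E14.5 in HSC it was -0.063 to 0.047. Ifi204 in HSC had -0.16 to 0.30 for E16.5 against E14.5, -0.11 to 0.54 for E18.5 against E16.5 and -0.37 to 0.042 for P14 against P7. Adult against P14 HSC had -0.18 to 0.012 for Mndal and -0.14 to 0.049 for Aim2, adult against E16.5 HSC -0.15 to 0.039 for Aim2 and adult against P14 HPC -0.74 to 0.13 for Mnda. The Flt3 ITD difference ran from -0.065 to 0.079 for Aim2 on Ifnar +/- and from -0.15 to 0.41 for Mnda on Ifnar -/-, and the Ifnar difference on Flt3 +/+ from -0.022 to 0.30 for Ifi203 and -0.041 to 0.17 for Aim2. The difference of P0 effects ran from -0.044 to 0.27 for Mndal and -0.035 to 0.26 for Aim2, and age by cell type from -0.074 to 0.072 for Mndal. Otherwise the sign changed for Ifi203 E16.5 against E14.5 with only these ages fitted (0.0038), Ifi204 there on recovered reads (-0.032), Mndal in age by cell type with only these groups fitted (0.0055), and Aim2 with the Flt3 ITD on Ifnar +/- with no filter (-0.027) and by DESeq2 (-0.017). Numbers of genes called over all genes, with the range when 1 library was left out, were as follows. In HSC, E16.5 against E14.5 had 7 (2 to 8), E18.5 against E16.5 731 (419 to 643), P0 against E18.5 645 (378 to 665), P7 against P0 789 (456 to 771) and P14 against P7 229 (119 to 199). In HPC, P0 against E16.5 had 485 (232 to 527), P7 against P0 218 (112 to 179), P14 against P7 1458 (542 to 1612) and adult against E16.5 3979 (2535 to 3687). The Ifnar comparison in P0 HPC had 1400 (660 to 2343) and the difference of P0 effects 301 (194 to 620). At P14, Flt3 ITD/+ against Flt3 +/+ on Ifnar +/- had 895 (267 to 5783), Ifnar -/- against Ifnar +/- on Flt3 +/+ 833 (41 to 6233), on Flt3 ITD/+ 710 (327 to 695), and the difference of effects 2 (0 to 5582). Members called ran over the same fits from 1 to 2 (HSC P0 against E18.5), 0 to 1 (HSC P7 against P0), 1 to 2 (HSC adult against E16.5), 1 to 3 (HPC P0 against E16.5), 0 to 1 (HPC P14 against P7), 0 to 2 (HPC adult against P14), 2 to 4 (Ifnar in P0 HSC), 1 to 4 (Flt3 ITD on Ifnar +/-), 0 to 2 (Ifnar on Flt3 +/+), 0 to 3 (difference of P14 effects) and 0 to 1 (age by cell type).

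DESeq2 called 845 genes for HPC P0 against E16.5, 406 for HPC P7 against P0 (1 member), 336 for Ifnar in P0 HSC, 2656 for Flt3 ITD on Ifnar +/-, 419 for Flt3 ITD on Ifnar -/- (main 167), 3045 for Ifnar on Flt3 +/+ (3 members), 1341 for Ifnar on Flt3 ITD/+, 2467 for the difference of P14 effects (3 members) and 744 for that of P0 effects. Fitting only the groups compared gave 0 genes for HSC E16.5 against E14.5, 137 for P0 against E18.5 (0 members) and 419 for P7 against P0, and 1 member for HSC adult against E16.5. In HPC it gave 170 for P0 against E16.5, 640 for P7 against P0 (1 member), 2657 for adult against P14 (main 4275, 1 member) and 0 members for P14 against P7. At P14 it gave 164 for Flt3 ITD on Ifnar +/- (2 members), 307 on Ifnar -/-, 44 for Ifnar on Flt3 +/+ (0 members) and 1398 on Flt3 ITD/+. Without a filter the counts were 14 for HSC E16.5 against E14.5, 478 for E18.5 against E16.5, 139 for P14 against P7 and 4 for the difference of P14 effects, with 0 members for HPC P14 against P7 and 2 for Flt3 ITD on Ifnar +/-. A pseudocount of 0.1 gave 1 member for HSC adult against E16.5. EdgeR on recovered reads called 7, 604, 527, 711, 173, 667 and 3152 genes in the HSC comparisons from E16.5 against E14.5 to adult against E16.5, with 1 member for P7 against P0.

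Replicate numbers do not pair the libraries: correlations between deviations of same-numbered libraries ran from -0.126 to 0.122 in HSC, -0.230 to 0.188 in HPC and -0.0835 to 0.222 at P14. With the replicate number as a block, genes called were 4 for HSC E16.5 against E14.5, 1585 for Flt3 ITD on Ifnar +/-, 1504 for Ifnar on Flt3 +/+, 459 on Flt3 ITD/+ and 1 for the difference of P14 effects, and members called were 0 for HPC P14 against P7 and 1 for HPC adult against P14. The block also ended the Mnda call for Ifnar in P0 HSC (-3.02, edgeR adjusted p = 0.157) and the Ifi204 call for HPC P0 against E16.5 (2.30, edgeR adjusted p = 0.0579), gave an Ifi203 call for wild type P0 HSC against HPC (-0.48, edgeR adjusted p = 0.0209), and changed the sign of Ifi203 E16.5 against E14.5 in HSC (0.046) and of Ifi204 for the Flt3 ITD on Ifnar -/- (-0.11). Low read counts limit the results for Ifi207 and Mnda most, in HSC and in Ifnar -/- groups, also in the deeper libraries.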
